A study of Mus musculus with 9 samples.

Results

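The genes described here are those that the deposited table lists under the mRNA surveillance pathway and that it does not also list under Spliceosome, Nucleocytoplasmic transport or Ribosome biogenesis in eukaryotes. Of the 97 genes listed under the mRNA surveillance pathway, 64 met this rule and 33 did not, out of 21899 genes in the table. They encode the machinery that caps an mRNA, cleaves and polyadenylates its 3′ end, binds the poly(A) tail, ends translation and marks faulty transcripts for decay, together with subunits of the protein phosphatases PP1 and PP2A. The rule used pathway annotation alone and no measured value. Of the 64 genes, 58 passed the filter on low counts and could be tested.

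The 3′ end of a pre-mRNA is made when the cleavage and polyadenylation specificity factor (CPSF) recognises the polyadenylation signal and cuts the transcript, with help from the cleavage stimulation factor (CstF), which binds downstream, and from cleavage factors I and II. A poly(A) polymerase then adds the tail, which is coated by nuclear and later by cytoplasmic poly(A)-binding proteins. In nonsense-mediated decay, a ribosome that stops too early recruits UPF1, which the kinase SMG1 phosphorylates, and factors such as SMG5 and SMG6 bind the phosphorylated form and bring about decay of the transcript. PP2A, a phosphatase built from a scaffold, a catalytic and an exchangeable regulatory subunit, belongs to the same annotated pathway because it removes phosphate from UPF1, and it has many other substrates in neurons and elsewhere.

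RNA was sequenced from N2a (Neuro-2a) cells, a mouse neuroblastoma line. The control cells carried a luciferase hairpin (shlucif), and the others carried shArf1-1 or shArf1-2, which are 2 separate hairpins directed at Arf1. Each group had 3 libraries. Arf1 is a small GTPase of vesicle transport and lipid metabolism. The paper lists pLKO.1 plasmids with puromycin resistance for these hairpins and describes the making of lentiviral particles. It does not say whether puromycin was applied, and the library titles name no other treatment. The comparison asks how the loss of Arf1 changed the transcripts of the cells, and the 6 libraries with a hairpin against Arf1 are called Arf1-deficient.

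The libraries held between 11182479 and 15594615 counts, of which the 10 highest genes took between 4.11% and 6.02% and mitochondrial genes between 0.656% and 1.31%. Arf1 itself fell from 324 ± 6.72 FPKM (fragments scaled to the gene length and to the total count of the library, mean ± SD, n = 3) with shlucif to 128 ± 1.73 with shArf1-1 and 165 ± 6.92 with shArf1-2. Of 14 neuroblast markers, 11 could be tested and 10 of these were higher in Arf1-deficient cells, beside 31.6% of all tested genes. Their summed level was 728 to 764 FPKM with shlucif and 1140 to 1310 FPKM in the 6 Arf1-deficient libraries, and Nefm was at 0 in every library. The 12 macrophage markers had a summed level of 186 to 222 FPKM in the shlucif libraries and 0.693 to 1.17 FPKM in the Arf1-deficient ones. In every Arf1-deficient library Ctss, Aif1, Itgam and Cx3cr1 were at 0, and 8 of the 12 had at most 3 counts. All 10 tested were lower, beside 32.9% of all tested genes. The filter on low counts keeps a gene expressed in 1 group alone, so markers this low were tested through their shlucif counts only. Their calls therefore add nothing to these levels. The shlucif libraries thus differed from the others in these markers as well as in Arf1, and the part of that difference in the changes described here was not tested. Nothing in the labels says that the libraries of a group came from separate cultures, so the p-values measure only the spread between libraries.

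The hairpins are shown because every comparison rests on them. Both targets lie in Arf1 on chromosome 11 of GRCm38, minus strand, that of shArf1-1 at chr11:59213222-59213242 and that of shArf1-2 at chr11:59213386-59213406, and capitals mark the whole 21-base target.

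shArf1-1: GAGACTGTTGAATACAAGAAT

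shArf1-2: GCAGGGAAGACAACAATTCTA

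The longest run of bases that a target shared with the transcript of one of the 64 genes was 12 bases (shArf1-1 with Ppp2r3a) and 11 bases (shArf1-2 with Fip1l1).

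More of these genes rose than fell in Arf1-deficient cells, and none of the 58 moved by 1 or more on the log2 scale. With edgeR (quasi-likelihood F test, p-values adjusted by Benjamini-Hochberg over all 12448 tested genes), 26 of the 58 were higher (44.8%), 7 were lower (12.1%) and 25 did not pass the threshold of 0.05. Over all tested genes, 31.6% were higher and 32.9% lower. The median log2 fold change was 0.17 over the 58 genes and 0.00 over all tested genes. The size of the change was modest, with a median absolute log2 fold change of 0.22 against 0.37 over all tested genes. On the log2 scale 6 of the 58 genes moved by 0.5 or more, beside 4626 of all 12448 tested genes. A move of 1 or more was seen in 1785 of all tested genes. In TMM-scaled CPM, the lowest Arf1-deficient library was above the highest shlucif library for 23 genes (27.9% of all tested genes did so) and the reverse held for 7 (30.1% of all tested genes). The balance of the calls depended on the scaling. Library totals and limma on log2 FPKM gave more higher and fewer lower genes, as given in the last section. An offset from a loess curve on gene length moved the counts most and gave 45 higher and 3 lower genes of the 58. Under it the median of all tested genes rose to 0.16 and that of the 58 genes to 0.315. The counts therefore moved with a shift of all genes, and do not show a change particular to the 58.

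**Figure D1:**
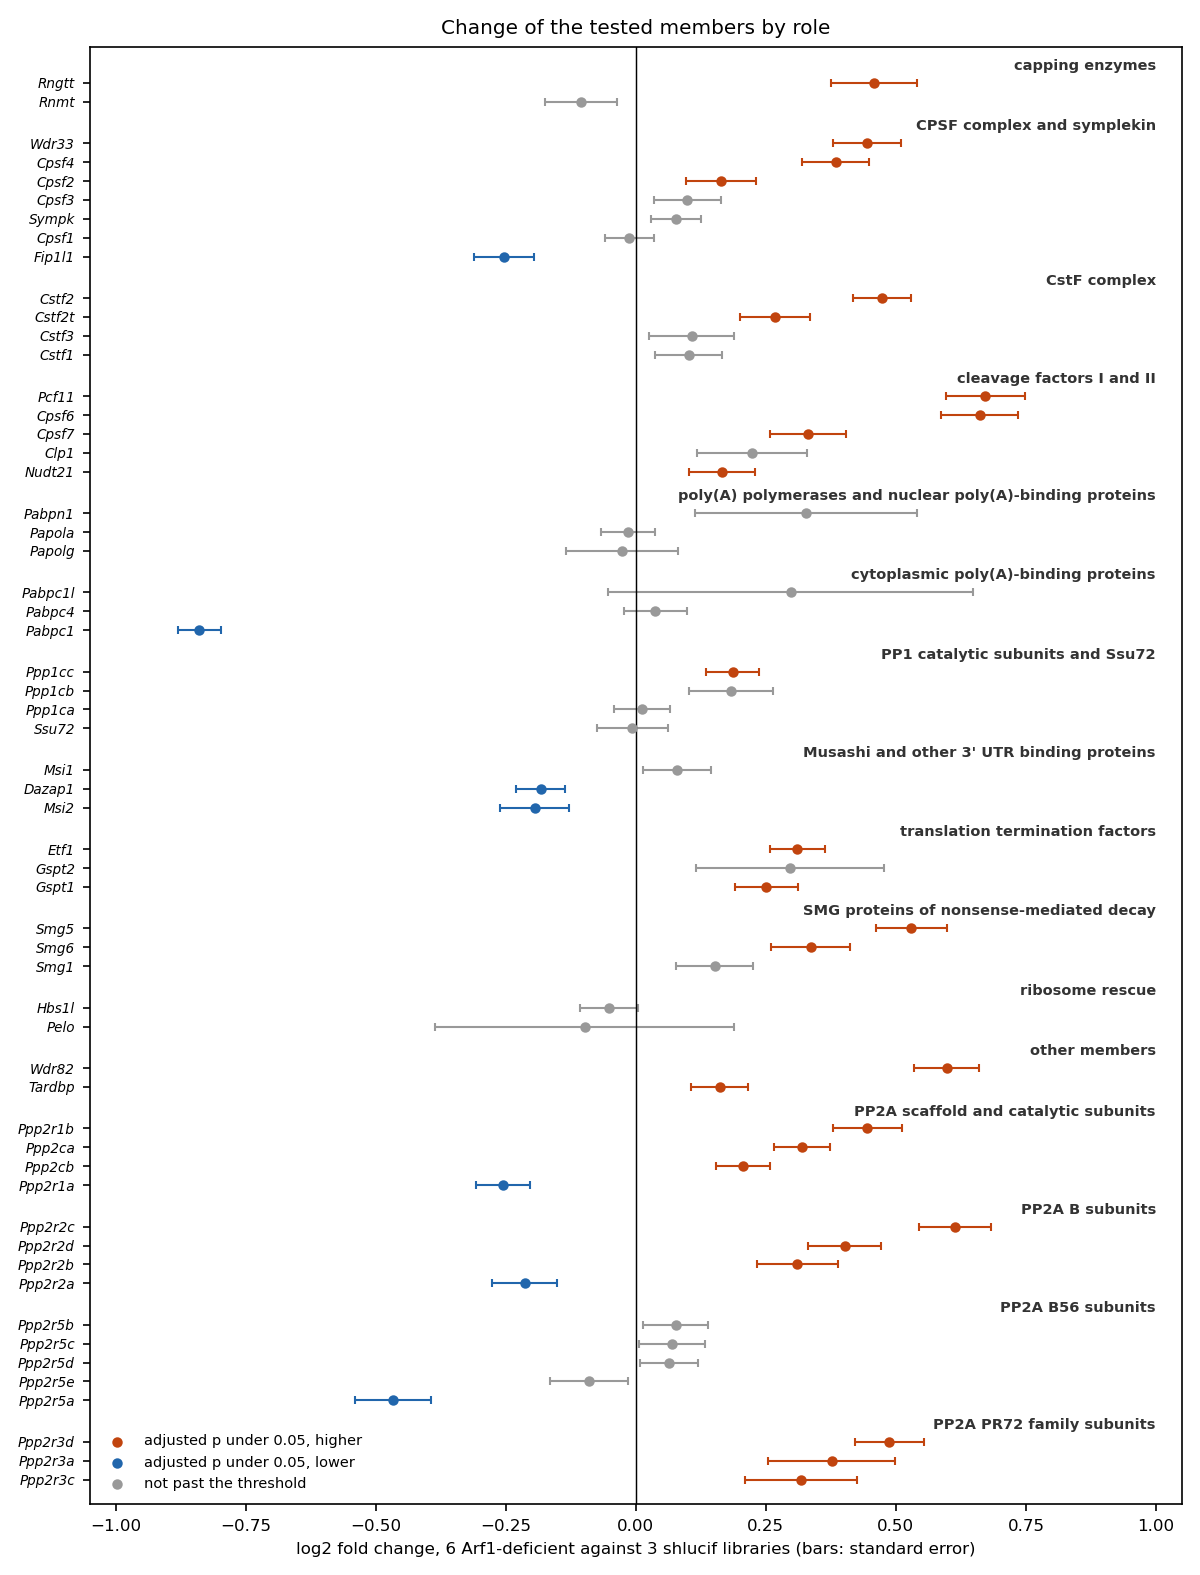
Log2 fold change of the tested genes that are reported by name, between the 6 Arf1-deficient and the 3 shlucif libraries, grouped by role, with points for the estimate and bars for the standard error. The 26 orange genes were higher and the 7 blue genes lower past an adjusted p of 0.05, with Pabpc1 farthest to the left at -0.84 and Pcf11 farthest to the right at 0.67.

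Among the capping enzymes, Rngtt, which carries out the first steps of capping, rose by 0.46 ± 0.08 (log2 fold change ± SE, adjusted p = 7.33e-05), from 3.17 ± 0.04 FPKM (SD, n = 3) with shlucif to 4.61 ± 0.39 with shArf1-1 and 4.47 ± 0.11 with shArf1-2. Rnmt, the cap methyltransferase, had a log2 fold change of -0.11 ± 0.07 that did not pass the test (adjusted p = 0.189). Wdr82, which links the SET1 histone methyltransferase and a phosphatase complex to RNA polymerase II, was at 15.8, 14.98 and 15.3 FPKM in the shlucif libraries, 23.9, 25.2 and 26.6 FPKM with shArf1-1 and 24.4, 22.3 and 23.5 FPKM with shArf1-2. The groups did not overlap, and the log2 fold change was 0.60 ± 0.06 (adjusted p = 1.07e-07).

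Of the 7 tested genes of the CPSF complex and its scaffold symplekin, 3 rose (42.9%) and 1 fell (14.3%), beside 31.6% and 32.9% of all tested genes. Wdr33, a subunit that contacts the polyadenylation signal, was at 4.91, 5.09 and 4.55 FPKM with shlucif, 6.90, 6.40 and 7.46 with shArf1-1 and 6.68, 7.11 and 6.81 with shArf1-2, a log2 fold change of 0.44 ± 0.07 (adjusted p = 7.37e-06). Cpsf4, the other subunit that contacts the signal, rose by 0.38 ± 0.06 (adjusted p = 3.82e-05). The subunit that fell was Fip1l1, which tethers the poly(A) polymerase: it was at 8.62, 8.94 and 8.34 FPKM with shlucif, 7.59, 7.33 and 8.08 with shArf1-1 and 7.59, 7.86 and 6.91 with shArf1-2, with a log2 fold change of -0.25 ± 0.06 (adjusted p = 0.000807). All 6 Arf1-deficient libraries were thus below the lowest shlucif library. Cpsf2 passed narrowly at 0.16 ± 0.07 (adjusted p = 0.0409) and did not pass when any one of the shlucif or shArf1-1 libraries or shArf1-2 replicate 3 was left out (adjusted p between 0.0531 and 0.123). The endonuclease Cpsf3 (0.10), Sympk (0.08) and Cpsf1 (-0.01) did not pass the test. Without shlucif replicate 1, Cpsf3 passed at 0.17 (adjusted p = 0.0422).

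In the CstF complex, both genes for the RNA-binding subunit rose. Cstf2, on the X chromosome, was at 15.4, 16.2 and 14.9 FPKM with shlucif, 22.2, 23.4 and 24.4 with shArf1-1 and 21.3, 22.1 and 21.6 with shArf1-2, with a log2 fold change of 0.47 ± 0.06 (adjusted p = 5.12e-07). Its intronless paralog Cstf2t rose by 0.27 ± 0.07 (adjusted p = 0.00196). The other subunits, Cstf1 at 0.10 and Cstf3 at 0.11, did not pass.

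Cleavage factors I and II held the genes with the largest rises of all 58. Pcf11, the cleavage factor II subunit that binds the tail of RNA polymerase II, was at 5.23, 5.71 and 4.85 FPKM with shlucif, 8.84, 7.78 and 8.71 with shArf1-1 and 8.47, 9.75 and 8.95 with shArf1-2, over 517 to 1063 counts per library. Its log2 fold change of 0.67 ± 0.08 (adjusted p = 2.57e-07) was the largest rise. Cpsf6, a large subunit of cleavage factor I, was at 7.77, 9.73 and 8.03 FPKM with shlucif, 15.01, 14.3 and 15.2 with shArf1-1 and 12.9, 13.5 and 13.2 with shArf1-2, and rose by 0.66 ± 0.07 (adjusted p = 3.22e-07). Neither gene's groups overlapped. The other large subunit, Cpsf7, rose by 0.33 ± 0.07 (adjusted p = 0.000595). Nudt21, the small subunit that recognises the UGUA element upstream of the cleavage site, rose by 0.17 ± 0.06 (adjusted p = 0.0264), but did not pass without shlucif replicate 1 or 2 or shArf1-1 replicate 1 or 3 (adjusted p = 0.0632, 0.107, 0.0536 and 0.0504). Of the summed FPKM of the 3 cleavage factor I genes, the share of Cpsf6 was 21.1% to 24.9% with shlucif and 27.3% to 29.2% in the Arf1-deficient libraries, and that of Nudt21 was 56.8% to 61.3% and 52.9% to 54.5%. Clp1, the RNA kinase of cleavage factor II, did not pass at 0.22 ± 0.11 (adjusted p = 0.072), and passed without shArf1-2 replicate 2 (0.26, adjusted p = 0.0363).

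**Figure D2:**
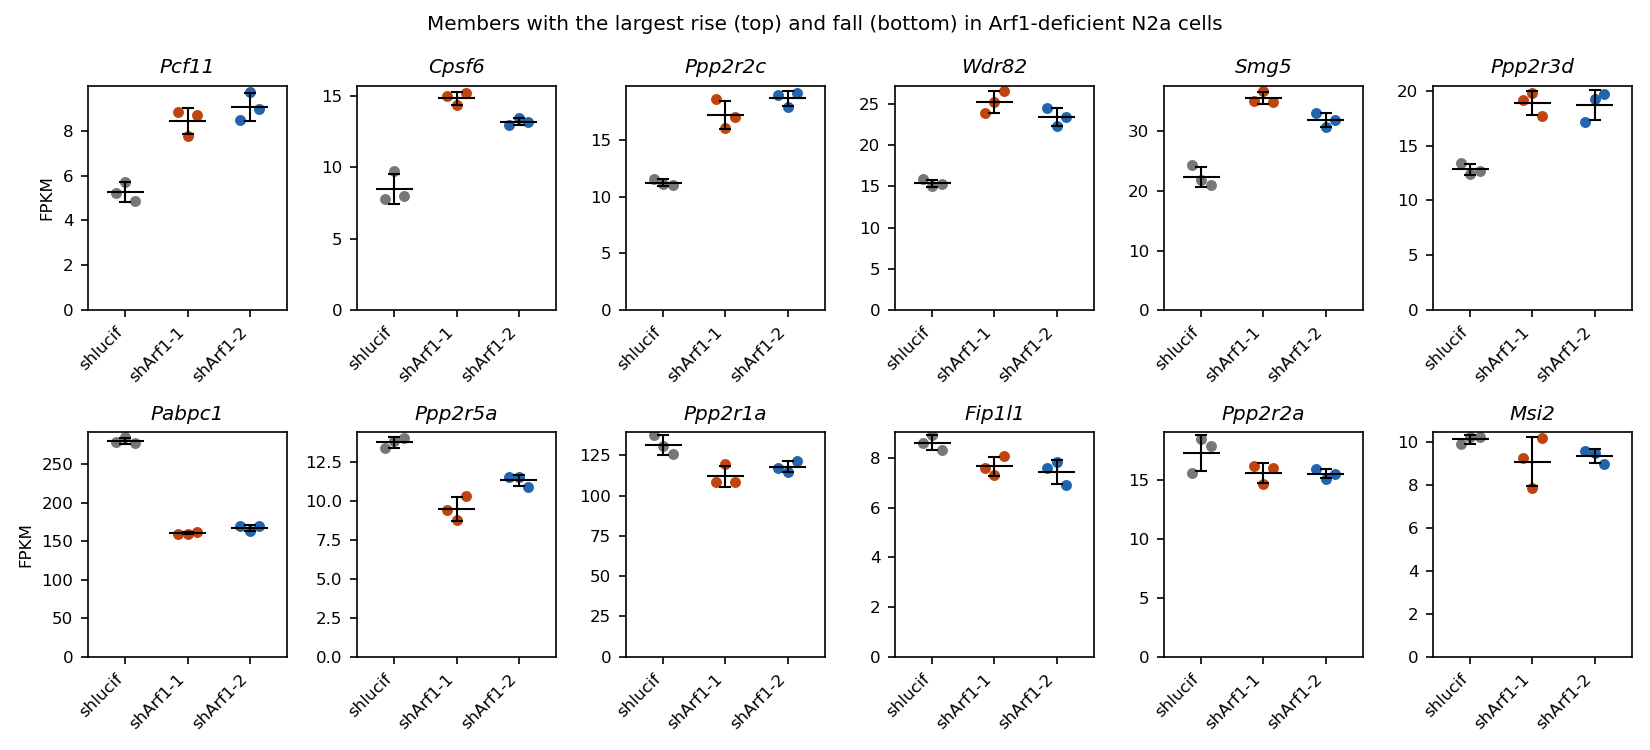
FPKM in each of the 9 libraries (points, 3 per hairpin) with the mean and SD of each group (black), for the 6 genes with the largest rise and the 6 with the largest fall among those past the threshold whose groups did not overlap in scaled CPM. Pabpc1 fell from 280.5 to 160.5 and 167.0 FPKM on average, and in FPKM the groups of Ppp2r2a and Msi2 overlapped.

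The genes that add the poly(A) tail showed no call in either direction. Papola, the main poly(A) polymerase, was at 34.9, 36.4 and 36.6 FPKM with shlucif, 36.8, 34.1 and 40.0 with shArf1-1 and 37.7, 36.4 and 38.0 with shArf1-2, so that the groups overlapped, and its log2 fold change was -0.02 ± 0.05 (adjusted p = 0.812). Papolg was at -0.03 ± 0.11. Pabpn1, the nuclear poly(A)-binding protein, was at 0.33 ± 0.21 over only 33 to 61 counts (adjusted p = 0.187). Its groups did not overlap in scaled CPM. It passed with limma on log2 FPKM with a pseudocount of 1 or 0.1 (adjusted p = 0.0225 and 0.0297). Under the loess curve on gene length it also passed (adjusted p = 0.0482). In the annotation, 21.4% of its exon bases are shared with the readthrough gene Gm20521, which had 0 counts in every library. Papolb (1 to 14 counts) and Pabpn1l (0 to 5 counts) were too low to test.

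Pabpc1, the main cytoplasmic poly(A)-binding protein, which joins the tail to translation initiation, was the most abundant of the 64 genes and fell the most. It was at 279, 285 and 278 FPKM in the shlucif libraries, 160, 159 and 162 with shArf1-1 and 169, 163 and 169 with shArf1-2. The lowest shlucif library was far above the highest Arf1-deficient one, and the log2 fold change was -0.84 ± 0.04 (adjusted p = 2.09e-12), a level 0.559 times that of the control. In bulk RNA, fewer cells of a type and less RNA per cell cannot be told apart. Pabpc4, an inducible paralog, was at 50.7, 47.8 and 50.1 FPKM with shlucif, 57.04, 54.9 and 56.1 with shArf1-1 and 50.9, 48.4 and 51.3 with shArf1-2, with a log2 fold change over both hairpins of 0.04 ± 0.06 (adjusted p = 0.601). Of the summed FPKM of Pabpc1, Pabpc4 and Pabpc1l, Pabpc1 made up 84.5% to 85.6% with shlucif, 73.5% to 74.3% with shArf1-1 and 76.5% to 76.9% with shArf1-2, while the sum went from 330 ± 2.45 FPKM (SD, n = 3) to 217 ± 2.36 and 218 ± 5.22. Pabpc1l (9 to 25 counts) did not pass. Pabpc4l had 0 to 7 counts and was not tested, and Pabpc2, Pabpc5 and Pabpc6 were at 0 in every library.

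Among the factors that end translation, Etf1 (eRF1, which reads the stop codon) was at 57.5, 57.04 and 58.5 FPKM with shlucif, 73.7, 66.7 and 76.2 with shArf1-1 and 78.6, 76.96 and 76.01 with shArf1-2, and rose by 0.31 ± 0.05 (adjusted p = 4.4e-05). Its partner GTPase Gspt1 (eRF3a) was at 29.2, 30.03 and 26.9 FPKM with shlucif, 36.5, 33.5 and 39.6 with shArf1-1 and 34.4, 34.05 and 35.99 with shArf1-2, and rose by 0.25 ± 0.06 (adjusted p = 0.00128). Both genes were higher in all 6 Arf1-deficient libraries. Gspt2, the intronless eRF3b paralog, was at 50 to 98 counts and its log2 fold change of 0.30 ± 0.18 did not pass (adjusted p = 0.159). It made up 3.43% to 4.48% of the summed eRF3 FPKM with shlucif and 3.19% to 4.84% in the Arf1-deficient libraries. Pelo and Hbs1l, which rescue stalled ribosomes, did not pass at -0.10 ± 0.29 and -0.05 ± 0.05. Pelo had only 17 to 30 counts, and 46.2% of its exon bases overlap Gm49395 on the same strand.

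Among the SMG genes, Smg5 and Smg6 rose. Smg5, an adaptor that recruits decay enzymes, was at 24.3, 21.8 and 21.03 FPKM with shlucif, 35.2, 36.8 and 34.9 with shArf1-1 and 33.1, 30.7 and 31.9 with shArf1-2, with a log2 fold change of 0.53 ± 0.07 (adjusted p = 1.39e-06). Smg6, the endonuclease, was at 3.95, 4.21 and 3.87 FPKM with shlucif, 4.98, 5.33 and 5.49 with shArf1-1 and 5.18, 5.89 and 4.85 with shArf1-2, and rose by 0.34 ± 0.08 (adjusted p = 0.000759). The groups of neither gene overlapped. The kinase Smg1 did not pass at 0.15 ± 0.07 (adjusted p = 0.0787), and passed without shlucif replicate 2 (0.21, adjusted p = 0.0461) or shArf1-1 replicate 1 (0.19, adjusted p = 0.0149). Of the UPF genes, which the rule leaves out, Upf1 (0.33), Upf3a (0.37) and Upf3b (0.34) rose and Upf2 (0.03) did not pass. These rises were 75.0% of the UPF genes, beside 31.6% of all tested genes. Of the 4 tested genes whose transcripts are known as targets of nonsense-mediated decay, Atf4 rose by 0.59 ± 0.05. Gadd45a, Gadd45b and Ddit3 were lower at -0.94 ± 0.20, -0.72 ± 0.25 and -0.84 ± 0.16, where 32.9% of all tested genes were lower. Gadd45b was at -1.25 with shArf1-1 and -0.35 with shArf1-2, and Ddit3 at -1.14 and -0.61. By the test of the difference between the hairpins, both differed (adjusted p = 9e-07 and 7.08e-05), and Atf4 and Gadd45a did not. The 4 transcripts also respond to cell stress, so their levels do not measure decay.

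The PP2A subunits changed in both directions within single families, with 9 of 16 higher (56.2%) and 3 lower (18.8%), beside 31.6% and 32.9% of all tested genes. With 64.5% of all tested genes called, a family with calls in both directions is no result about PP2A. Of the scaffold genes, the abundant Ppp2r1a was at 138, 131 and 126 FPKM with shlucif, 108, 120 and 108 with shArf1-1 and 117, 115 and 121 with shArf1-2, with a log2 fold change of -0.25 ± 0.05 (adjusted p = 0.00026). Its paralog Ppp2r1b was at 7.34, 7.44 and 6.996 FPKM, then 10.1, 9.82 and 10.8, then 10.97, 10.3 and 9.87 in the same order of groups, and rose by 0.44 ± 0.07 (adjusted p = 8.55e-06). The share of Ppp2r1b in the summed scaffold FPKM was between 5.07% and 5.38% with shlucif and 7.52% to 9.09% in the 6 Arf1-deficient libraries. In the annotation, 22.2% of the exon bases of Ppp2r1b lie opposite exons of Sik2. The sum of the scaffold genes was 139 ± 6.20 FPKM with shlucif, 122 ± 6.22 with shArf1-1 and 128 ± 3.12 with shArf1-2. Under the loess curve on gene length Ppp2r1a did not pass (-0.09, adjusted p = 0.11).

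Both catalytic genes rose. Ppp2ca was at 41.9, 42.8 and 43.5 FPKM with shlucif, 58.5, 58.03 and 58.3 with shArf1-1 and 53.9, 53.8 and 51.8 with shArf1-2, a log2 fold change of 0.32 ± 0.05 (adjusted p = 3.39e-05). Ppp2cb, at 83.5, 87.3 and 90.7 FPKM, then 107, 102 and 106, then 104, 104 and 107, rose by 0.21 ± 0.05 (adjusted p = 0.00163). The sum of both catalytic genes was 130 ± 4.42 FPKM with shlucif, 163 ± 3.22 with shArf1-1 and 158 ± 0.438 with shArf1-2. An antisense gene, 9430098F02Rik, covers 39.9% of the exon bases of Ppp2ca, and whether reads were counted by strand is not given in the sources used here. How reads shared by near-identical paralogs such as Ppp2ca and Ppp2cb, or the retrogenes Cstf2t and Gspt2 and their parents, were divided is not given either.

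Of the 4 B subunits, which direct PP2A to its targets, 3 rose and 1 fell, beside 31.6% and 32.9% of all tested genes. Ppp2r2c, a mainly neuronal B subunit, was at 11.6, 11.1 and 11.1 FPKM with shlucif, 18.6, 16.1 and 17.03 with shArf1-1 and 18.98, 17.98 and 19.2 with shArf1-2, with a log2 fold change of 0.61 ± 0.07 (adjusted p = 2.97e-07). Ppp2r2d rose by 0.40 ± 0.07 (adjusted p = 5.9e-05) and Ppp2r2b, the other neuronal B subunit, by 0.31 ± 0.08 (adjusted p = 0.00176). The broadly expressed Ppp2r2a was at 15.5, 18.4 and 17.8 FPKM with shlucif, 16.1, 14.6 and 15.97 with shArf1-1 and 15.9, 15.1 and 15.5 with shArf1-2. It fell by 0.21 ± 0.06 on the log2 scale (adjusted p = 0.00574), with groups apart in scaled CPM but not in FPKM, and it did not pass without shlucif replicate 2 (-0.17, adjusted p = 0.0502), with limma on log2(FPKM + 1) (-0.14, adjusted p = 0.0502) or under the loess curve on gene length (-0.05, adjusted p = 0.511). In the summed FPKM of the family, Ppp2r2a was the largest share in every shlucif library (34.2% to 39.7%) and Ppp2r2c the largest in every Arf1-deficient one (29.9% to 34.1%).

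**Figure D3:**
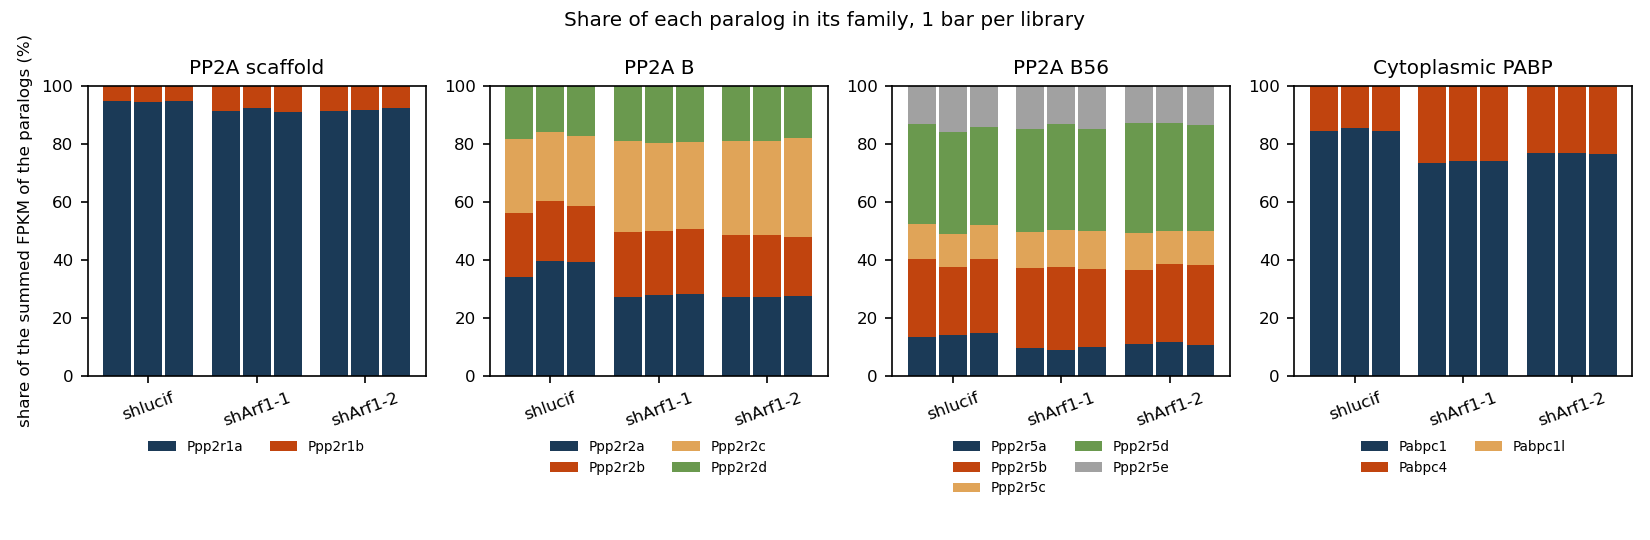
Share of each paralog in the summed FPKM of its family (%), 1 stacked bar per library, for the PP2A scaffold, B and B56 subunits and the cytoplasmic poly(A)-binding proteins. The share of Ppp2r2a was between 34.2% and 39.7% with shlucif and 27.0% to 28.1% in the 6 Arf1-deficient libraries, and that of Pabpc1 was at least 84.5% with shlucif and at most 76.9% in the others.

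Of the 5 B56 subunits, Ppp2r5a alone passed the test. It was at 13.3, 13.8 and 14.04 FPKM with shlucif, 9.38, 8.74 and 10.3 with shArf1-1 and 11.5, 11.5 and 10.9 with shArf1-2, so that the 3 groups did not overlap, and its log2 fold change was -0.47 ± 0.07 (adjusted p = 1.64e-05). The other B56 genes lay between -0.09 and 0.08 on the log2 scale. Their summed FPKM, Ppp2r5a included, was 98.6 ± 2.29 with shlucif, 101 ± 2.78 with shArf1-1 and 103 ± 1.83 with shArf1-2. FPKM carries no TMM scaling, and the sums were not tested. All 3 PR72 family subunits rose, beside 31.6% of all tested genes. Ppp2r3d was at 13.4, 12.4 and 12.7 FPKM with shlucif, 19.2, 19.8 and 17.7 with shArf1-1 and 17.2, 19.3 and 19.7 with shArf1-2, and rose by 0.49 ± 0.07 (adjusted p = 3.25e-06). Ppp2r3a at 0.38 ± 0.12 (adjusted p = 0.0116) did not pass without shlucif replicate 1 (0.23, adjusted p = 0.118) or 3 (0.35, adjusted p = 0.0527). Ppp2r3c at 0.32 ± 0.11 (adjusted p = 0.0148) did not pass without shlucif replicate 1 (0.30, adjusted p = 0.0522) or 2 (0.30, adjusted p = 0.0542). Outside the annotated pathway, 9 further PP2A regulators were examined. Of these, 4 rose (44.4%), 2 fell (22.2%) and 3 did not pass, beside 31.6% and 32.9% of all tested genes. Cip2a (0.80), an inhibitor of PP2A, Arpp19 (0.35), Set (0.32) and Ptpa (0.28) rose, and Igbp1 (-0.63) and Tiprl (-0.20) fell.

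Of the PP1 genes and the phosphatase Ssu72, which removes phosphate from the tail of RNA polymerase II, Ppp1cc rose by 0.19 ± 0.05 (adjusted p = 0.00344). Ppp1ca (0.01) and Ssu72 (-0.01) did not pass, nor did Ppp1cb at 0.18 ± 0.08 (adjusted p = 0.0551), which passed without shArf1-1 replicate 2 (0.23, adjusted p = 0.00198). Of the 3 RNA-binding proteins that act on 3′ UTRs, 2 fell (66.7%), beside 32.9% of all tested genes. Dazap1 was at 77.2, 80.0 and 79.2 FPKM with shlucif, 71.8, 72.8 and 75.5 with shArf1-1 and 69.4, 72.7 and 73.0 with shArf1-2, with a log2 fold change of -0.18 ± 0.05 (adjusted p = 0.00217), and did not pass under the loess curve on gene length (-0.02, adjusted p = 0.771). Msi2, a Musashi protein of stem and progenitor cells, was at 9.87, 10.2 and 10.2 FPKM with shlucif, 9.22, 7.85 and 10.2 with shArf1-1 and 9.58, 9.49 and 8.97 with shArf1-2, which overlap. Its log2 fold change of -0.19 ± 0.07 (adjusted p = 0.0154) did not pass without shlucif replicate 3 (adjusted p = 0.0573), with scaling by library totals (-0.13, adjusted p = 0.0953), with limma on log2 FPKM with a pseudocount of 1 or 0.1 (adjusted p = 0.136 and 0.133) or under the loess curve (-0.10, adjusted p = 0.189). Its paralog Msi1 was at 0.08 ± 0.07. Tardbp (TDP-43, an RNA-binding protein of splicing and 3′ ends) rose by 0.16 ± 0.05 (adjusted p = 0.0148), but did not pass without shlucif replicate 1 (0.12, adjusted p = 0.111), and 23.3% of its exon bases lie opposite Masp2.

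Each hairpin was also compared with the same 3 shlucif libraries. With shArf1-1, 27 of the 58 genes were higher and 7 lower (33.1% and 34.4% of all tested genes), and with shArf1-2, 25 were higher and 7 lower (30.9% and 32.6%). Because the control is shared, the calls of the hairpins are not independent. Of the 58 genes, 23 were higher and 7 lower with both hairpins, against 27.3% and 29.0% of all tested genes. None of the 58 passed in opposite directions, and 27 of all 12448 tested genes did. Cpsf2, Nudt21, Pabpc4 and Ppp2r3c passed with shArf1-1 alone, Clp1 and Smg1 with shArf1-2 alone, and 22 genes passed with neither.

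The test of the difference between the hairpins called 1 gene higher and 4 lower with shArf1-2 than with shArf1-1 (6.98% and 7.46% of all tested genes), and among them Pabpc4 was the only gene whose estimates had opposite signs. Ppp2r5a fell by 0.59 on the log2 scale with shArf1-1 and by 0.35 with shArf1-2, a difference of 0.23 ± 0.06 (adjusted p = 0.0095). Cpsf6 rose by 0.75 with shArf1-1 and 0.56 with shArf1-2 (difference -0.19 ± 0.06, adjusted p = 0.0381), Smg5 by 0.62 and 0.44 (-0.18 ± 0.06, adjusted p = 0.0323) and Ppp2ca by 0.39 and 0.24 (-0.15 ± 0.05, adjusted p = 0.0301). For these genes the change was larger with shArf1-1, the hairpin with the lower Arf1 level. The same held for 35 of the 58 genes and for 7576 of all 12448 tested genes, so it was not particular to them. Pabpc4 was at 0.12 ± 0.05 with shArf1-1 (adjusted p = 0.0386) and -0.05 ± 0.05 with shArf1-2 (adjusted p = 0.394), a difference of -0.18 ± 0.05 (adjusted p = 0.0205). These calls were not stable to the libraries used: the lower genes numbered 0 without shArf1-1 replicate 1 or shArf1-2 replicate 2, 1 without shArf1-2 replicate 3 and 2 without shArf1-2 replicate 1. The higher gene, Ppp2r5a, did not pass without shArf1-2 replicate 1 (0.22, adjusted p = 0.0532), and Smg1, named after its value was seen, also passed without shArf1-1 replicate 3 (0.22, adjusted p = 0.0267). Nudt21 was lower with shArf1-2 than with shArf1-1 without shArf1-1 replicate 2 (-0.20, adjusted p = 0.0176) and under the loess curve on gene length (-0.18, adjusted p = 0.0284).

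**Figure D4:**
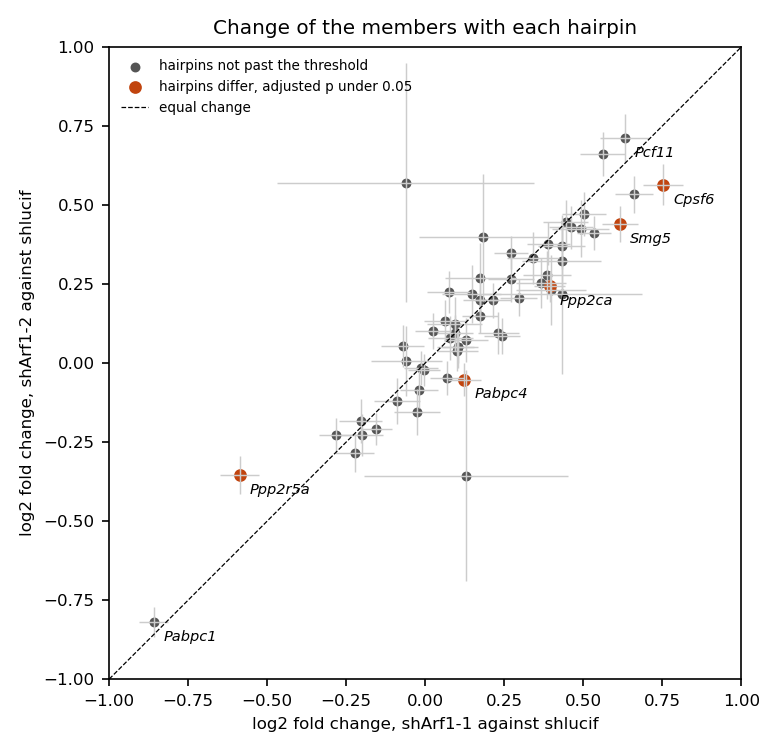
Log2 fold change of the 58 tested genes with shArf1-1 (horizontal) and shArf1-2 (vertical) against the shared shlucif libraries, with standard errors as grey lines and a dashed line of equal change. The 5 genes in orange differed between the hairpins past an adjusted p of 0.05, among them Ppp2r5a at -0.59 and -0.35 and Cpsf6 at 0.75 and 0.56.

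The remainder of the annotated pathway and the neighbouring pathways are given for scale, with no test of the difference. Of the 33 genes that the rule leaves out, 30 were tested, 16 were higher and 4 lower, with a median log2 fold change of 0.24. Of 123 tested spliceosome genes, 67 were higher and 16 lower (median 0.22), and of 72 tested RNA degradation genes, 25 were higher and 13 lower (median 0.11). The shares higher and lower were 53.3% and 13.3%, 54.5% and 13.0%, and 34.7% and 18.1% in this order, against 31.6% and 32.9% of all tested genes. In all 3 sets, as in the 58 genes, more genes were higher than lower. The sets are not separate: 13 of the 33 genes are also spliceosome genes. The cytoplasmic poly(A)-binding genes among the 64 are also listed under RNA degradation. Of 8 exon junction complex genes, 5 rose (62.5%) and 2 fell (25.0%), with Acin1 at 0.96 and Magoh at 0.53 among those that rose. Of 17 genes of the Integrator complex and of histone mRNA 3′ ends, which form 3′ ends without a poly(A) tail, 10 rose (58.8%) and 4 fell (23.5%). Their changes ran from Ints6 at 1.55 ± 0.11 to Lsm10 at -0.98 ± 0.10. With 64.5% of all tested genes called, calls in both directions in lists this small are no result about them.

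The promoters of the genes were read from RefSeq (GRCm38.p6), from 250 bases before to 50 after each start, for the 48 of the 64 genes that had an entry. Pabpc1 was among those without one. Of 6 motifs searched on both strands, none of which contains another, the GC box GGGCGG was in 34 of 48 promoters (70.8%, against 69.3% of all tested genes with a promoter), CCAAT in 18 (37.5% against 43.3%), the ETS motif CCGGAAG in 8 (16.7% against 20.2%), the E-box CACGTG in 3 (6.25% against 11.7%) and the NRF1 core GCATGCGC in 2 (4.17% against 6.11%). The cAMP response element TGACGTCA, the full palindrome bound by CREB and ATF proteins, was in 4 (8.33% against 3.69%). The promoters that hold it are shown as 40-base windows, with the element in capitals, for Msi2 (minus strand, chr11:88718423-88718462), Ppp2ca (plus strand, chr11:52098782-52098821), Ppp2r2d (plus strand, chr7:138846322-138846361) and Wdr82 (plus strand, chr9:106170815-106170854).

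Msi2: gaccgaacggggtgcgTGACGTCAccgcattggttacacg

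Ppp2ca: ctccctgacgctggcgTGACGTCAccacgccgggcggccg

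Ppp2r2d: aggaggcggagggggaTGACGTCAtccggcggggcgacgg

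Wdr82: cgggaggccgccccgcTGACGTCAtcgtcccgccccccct

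Of these 4 genes, Ppp2ca, Ppp2r2d and Wdr82 rose and Msi2 fell, at 0.32, 0.40, 0.60 and -0.19. The windows of Msi2, Ppp2ca and Ppp2r2d lie before the RefSeq start but inside the span of the GENCODE gene, and that of Wdr82 lies outside it. A match is a description of the letters, not evidence of a bound site.

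The whole promoter windows of the genes with the 2 largest rises and of Ppp2r5a, the largest fall with an entry, are given with CCAAT and GC boxes on either strand in capitals. They lie on the minus strand at chr7:92669863-92670162 (Pcf11), chr10:117376924-117377223 (Cpsf6) and chr1:191396992-191397291 (Ppp2r5a). For each of them the RefSeq start lies inside the span of the GENCODE gene, and for Cpsf6 and Ppp2r5a the whole window does.

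Pcf11: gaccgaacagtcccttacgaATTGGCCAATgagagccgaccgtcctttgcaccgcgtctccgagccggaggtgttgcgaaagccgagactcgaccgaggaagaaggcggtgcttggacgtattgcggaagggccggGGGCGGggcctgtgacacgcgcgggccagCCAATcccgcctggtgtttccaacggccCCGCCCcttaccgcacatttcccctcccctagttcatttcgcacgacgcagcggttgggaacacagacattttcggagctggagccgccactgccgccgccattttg

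Cpsf6: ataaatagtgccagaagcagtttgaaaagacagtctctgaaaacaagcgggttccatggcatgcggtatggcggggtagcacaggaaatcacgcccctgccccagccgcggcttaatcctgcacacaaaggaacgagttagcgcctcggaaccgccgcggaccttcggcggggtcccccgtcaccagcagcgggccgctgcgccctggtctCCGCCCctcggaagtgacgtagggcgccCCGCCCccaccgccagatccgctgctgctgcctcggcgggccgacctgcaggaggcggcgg

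Ppp2r5a: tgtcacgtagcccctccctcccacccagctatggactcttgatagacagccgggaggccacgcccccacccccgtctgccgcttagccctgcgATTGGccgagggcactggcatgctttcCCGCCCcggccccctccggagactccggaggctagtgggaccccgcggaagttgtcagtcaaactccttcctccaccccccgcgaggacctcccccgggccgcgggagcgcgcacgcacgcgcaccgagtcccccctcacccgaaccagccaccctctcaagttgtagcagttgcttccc

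Pcf11 held 3 CCAAT and 2 GC boxes, Cpsf6 2 GC boxes and no CCAAT, and Ppp2r5a 1 of each. Their GC content was 63.7%, 66.3% and 69.0%.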

How the data were processed

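Raw read counts and FPKM values of 21899 genes in 9 libraries were deposited by the authors in a single table. Per the labels, libraries were made from poly(A) RNA with random primers, and the submitters' processing notes name the build mm10. Aligner, counter and strand setting are not given in the sources used here. The deposited FPKM values were recovered from the counts, listed lengths and library totals to a relative tolerance of 0.0001. The listed gene lengths (other) were used for this check and for the length correction. Columns read as shArf1-2 carry the number 2 straight after the gene name. 8 lines that continue the annotation of the line before were joined to it.

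Counts were tested with edgeR 4.0.16 (R 4.3.3): filterByExpr, TMM, glmQLFit with robust estimation and glmQLFTest, with Benjamini-Hochberg adjustment over 12448 genes and a threshold of 0.05. A 2-group fit gave Arf1-deficient against shlucif, and a 3-group fit gave each hairpin and their difference. Standard errors are the log2 fold change over the square root of F. FPKM was used to show levels per gene length, and non-overlap was judged on TMM-scaled CPM. The TMM factors were 0.962 to 0.983 with shlucif and 1.005 to 1.032 in the Arf1-deficient libraries. FPKM, scaled to library totals alone, therefore runs slightly higher in Arf1-deficient libraries than the scale that was tested. Libraries of a group differed by more than sampling noise (chi-square per degree of freedom 2.99 to 8.61). Coordinates are those of GRCm38 by gene identifier, since 514 of 21795 genes had the same start in the table. The tests were tested on simulated counts with 200 genes changed by known amounts, and the self-test's pass mark for recovery was lowered after a first run had missed it.

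The genes and lists were chosen with earlier results of these data known. Any of the 64 genes could be named under its role, but an item that is not reported here by name is left out of the text and the plot by role and stays in the counts. Values in every library were given for the 6 largest rises and falls, genes that differed between hairpins, the most abundant genes and paralogs set side by side, as FPKM rather than counts, and for a few other genes chosen after their values were seen. Alternatives were library totals, upper quartile scaling, DESeq2 1.42.0, no filter, at least 10 counts in every library, limma 3.58.1 on log2 FPKM with a pseudocount of 1 or of 0.1, a block for replicate number, an offset from a loess curve on gene length, only the 6 libraries compared, the average of the hairpin contrasts and leaving out each library. A robust, centred loess curve was added later, once the result of the plain curve was known.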

Additional observations from a re-analysis of the deposited data

Results flagged for a closer look

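The change against the shlucif libraries differed between the hairpins for 5 genes, by the test of the difference itself (edgeR's quasi-likelihood test, adjusted p under 0.05 over all tested genes). They were 8.62% of the 58 tested genes, beside 14.4% of all tested genes. Only Ppp2r5a still passed without shArf1-1 replicate 1 or without shArf1-2 replicate 2. As shArf1-2 minus shArf1-1 on the log2 scale, the differences were 0.23 for Ppp2r5a, -0.15 for Ppp2ca, -0.18 for Smg5, -0.19 for Cpsf6 and -0.18 for Pabpc4. Arf1 was at 128 FPKM with shArf1-1 and 165 FPKM with shArf1-2. The part of the Arf1 level in these differences was not tested.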

How the results depend on the processing

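Of the 33 genes past the threshold in Arf1-deficient against shlucif cells, 24 passed in the same direction under every alternative run, and Cpsf2, Dazap1, Msi2, Nudt21, Ppp2r1a, Ppp2r2a, Ppp2r3a, Ppp2r3c and Tardbp did not pass under at least 1. None of the 33 changed sign while called. Of the 25 genes that did not pass, 6 stayed uncalled under every alternative, 16 became called in the same direction under at least 1, and 3 became called with the opposite sign. Library totals gave 34 higher and 6 lower, limma on log2(FPKM + 1) 36 and 5, and on log2(FPKM + 0.1) 35 and 6. The median of all tested genes also moved up under these settings, to 0.07, 0.05 and 0.06. The shares of all tested genes called under them are not given here. The plain loess curve on gene length moved the median of all genes by 0.16 and gave 45 higher and 3 lower (shArf1-1: 43 and 3, shArf1-2: 42 and 3). Under it Cpsf1 (0.15, adjusted p = 0.0126), Ssu72 (0.16, adjusted p = 0.038) and Papola (0.15, adjusted p = 0.0175) changed from a negative estimate that did not pass to a called rise. A robust curve with its median set to 0, chosen after seeing that result, gave 26 higher and 7 lower with a median of all genes of -0.01. The cause of the gap between the curves was not tested. Genes lower with shArf1-1 numbered 4 with library totals and with limma on either FPKM scale, and genes lower with shArf1-2 than shArf1-1 numbered 2 with limma on either scale. Leaving out 1 library gave 22 to 27 higher and 6 to 7 lower (shArf1-1: 25 to 28 and 6 to 7, shArf1-2: 23 to 26 and 6 to 9), and 0 to 2 higher and 0 to 4 lower between the hairpins. Equal replicate numbers did not mark paired libraries (correlations of deviations from the group means between -0.08 and 0.09), and the fit with the replicate block gave 25 higher and 7 lower, without Cpsf2 (0.16, adjusted p = 0.0522). Depth limited the low genes most: the standard error was 0.04 for Pabpc1 and 0.35 for Pabpc1l, which had 9 to 25 counts per library.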
